A study of Mus musculus with 27 samples.

Results

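Livers of mice given the hyaluronan synthesis inhibitor 4-methylumbelliferone (4MU) during carbon tetrachloride (CCl4) injury were compared with livers of mice given a control siRNA in lipid nanoparticles (siLuc-LNP) during the same injury. The comparison used 8 of the 27 libraries in the series, 4 labelled CCl4+4MU and 4 labelled CCl4+siLuc, and was chosen by these labels. All mice were female Balb/c of 8 weeks of age, and each library was made from a homogenate of total liver. The labels number the libraries of a group without naming animals. They are called mice here, and if some shared an animal the p-values would measure technical spread only. Both groups received intraperitoneal CCl4 over a course of 2 weeks. The CCl4 + 4MU group was given 600 mg/kg of 4MU by daily oral gavage in carboxymethyl cellulose. The CCl4 + siLuc-LNP group received an siRNA against firefly luciferase, a gene that mice lack, in C12-200 nanoparticles through the tail vein, at 1 mg/kg first and 0.5 mg/kg afterwards. The groups therefore differed in drug, nanoparticle, siRNA and route at once, and the parts of these in any difference cannot be told apart. The contrast was between these 8 libraries, and all 27 entered the filter, the scaling and the estimate of the spread.

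Kupffer cells are the resident macrophages of the liver sinusoids and clear particles from the blood. They carry scavenger receptors such as Marco and Cd163, and the complement receptor Vsig4. CCl4 is turned into a reactive radical mainly by Cyp2e1 in pericentral hepatocytes. The hepatocytes that survive divide, and stellate cells lay down collagen. 4MU is glucuronidated by UDP-glucuronosyltransferases and so draws on UDP-glucuronic acid, a precursor of hyaluronan.

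Library totals ranged from 22108328 to 29425937 counts in CCl4 + 4MU and from 20438092 to 25641808 counts in CCl4 + siLuc-LNP, so that 3 counts were worth 0.104 to 0.18 CPM, the count of a gene scaled to a common library total after TMM scaling. Replicates differed by more than sampling noise, with a chi-square per degree of freedom of 24.3 to 80.1 between CCl4 + 4MU mice and of 76.2 to 460.4 between CCl4 + siLuc-LNP mice. A pair of libraries stood apart from the rest. In CCl4 + siLuc-LNP mouse 3, the ribosomal RNA gene Rn18s-rs5 took 15.0% of all counts, against 0.0456% to 0.353% in the other 7 libraries. In CCl4 + 4MU mouse 4, Dmbt1, a mucin-like epithelial glycoprotein, stood at 2350.4 CPM, against 0 to 0.861 CPM in the other 7 libraries. The bile duct keratin gene Krt19 stood at 92.6 CPM in the same liver and at 0.645 to 3.36 CPM in the other 7. Of the genes called, 10 had a value in 1 of these libraries over 10 times the next highest, among them Dmbt1, Slc26a3, Car9 and Mmp7 in CCl4 + 4MU mouse 4 and Rn18s-rs5, Lars2 and Rn7sk in CCl4 + siLuc-LNP mouse 3, and these 10 rest on a single mouse.

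Of 14114 genes tested with edgeR's quasi-likelihood test, 88 (0.623%) differed between CCl4 + 4MU and CCl4 + siLuc-LNP at an adjusted p under 0.05. Of these, 48 (0.340% of the genes tested) were higher in CCl4 + 4MU and 40 (0.283%) were lower. This balance was not stable, with 206 higher and 314 lower by DESeq2, 23 and 7 with the replicate block, 17 and 1 without CCl4 + 4MU mouse 1, and 339 and 584 without CCl4 + siLuc-LNP mouse 3. At an unadjusted p under 0.05, 1296 genes (9.18%) were higher and 1399 (9.91%) lower. Counts of lists below are to be read beside these shares, and edgeR calls beside the 0.340% and 0.283% above. List counts by DESeq2 are to be read beside its 206 higher and 314 lower of the 14114 genes. In 540 genes (3.83%) all 4 CCl4 + 4MU mice lay above all 4 CCl4 + siLuc-LNP mice, and in 379 (2.69%) all 4 lay below. Of the 88 calls, 58 did not overlap between the groups. The median log2 fold change over all genes was 0.014. The number of calls depended on single mice, and ranged from 10 without CCl4 + 4MU mouse 4 to 923 without CCl4 + siLuc-LNP mouse 3. It was 18 and 27 without CCl4 + 4MU mouse 1 or 2, 351 without mouse 3, 16 and 17 without CCl4 + siLuc-LNP mouse 1 or 4, 561 without mouse 2, and 20 without both libraries that stood apart. With only the 8 libraries in the fit, 9 genes passed. Marco, Cd163, C6, Kcnj16, Mfsd2a, Pck1, Tedc2 and Tmsb10 passed whichever of the 8 mice was left out.

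**Figure D1:**
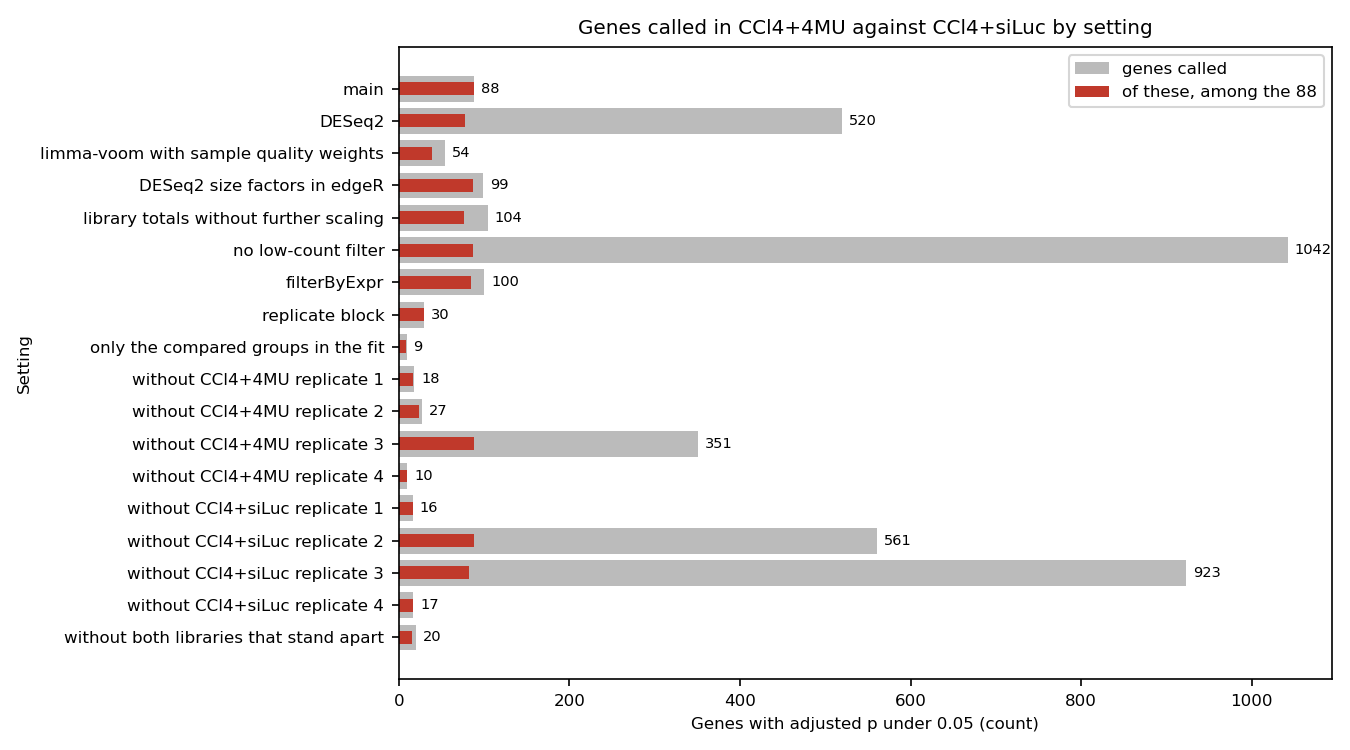
Number of genes with an adjusted p under 0.05 between CCl4 + 4MU and CCl4 + siLuc-LNP (horizontal axis, count) in the main analysis and under 17 alternatives (vertical axis). Grey bars give all genes called and red bars those among the 88 of the main analysis; the counts run from 9 to 1042.

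The clearest difference was in genes of Kupffer cells. Marco, a scavenger receptor for bacteria and particles (ENSMUSG00000026390, GRCm39 chromosome 1, 120402267 to 120432753), measured 19.4, 9.67, 9.76 and 33.5 CPM in the 4 CCl4 + 4MU mice and 0.0784, 0.54, 0.30 and 0.0347 CPM in the 4 CCl4 + siLuc-LNP mice. No value overlapped between the groups (log2 fold change 6.27 ± 0.64 (SE), adjusted p = 4.24e-06). Cd163, the macrophage receptor for haemoglobin-haptoglobin complexes (ENSMUSG00000008845, GRCm39 chromosome 6, 124281606 to 124307560), measured 7.23, 5.49, 4.99 and 7.05 CPM in the 4 CCl4 + 4MU mice and 0.196, 0.617, 0.48 and 0.173 CPM in the 4 CCl4 + siLuc-LNP mice. Every CCl4 + 4MU mouse lay above every CCl4 + siLuc-LNP mouse here too (log2 fold change 4.1 ± 0.40 (SE), adjusted p = 3.88e-06). C6, a component of the complement membrane attack complex that Kupffer cells express (ENSMUSG00000022181, GRCm39 chromosome 15, 4756525 to 4844580), measured 12.4, 6.83, 8.17 and 10.3 CPM in the 4 CCl4 + 4MU mice and 1.61, 2.7, 2.7 and 2.98 CPM in the 4 CCl4 + siLuc-LNP mice (log2 fold change 1.92 ± 0.26 (SE), adjusted p = 5.51e-04). Marco, Cd163 and C6 passed in all 17 alternatives, with adjusted p ranging over 4.78e-35 to 0.015, 7.27e-24 to 0.00776 and 4.02e-11 to 0.0329. Vsig4, a complement receptor of tissue macrophages, measured 41.1, 25.6, 22.5 and 37.2 CPM in the 4 CCl4 + 4MU mice and 8.58, 11.3, 9.12 and 12.4 CPM in the 4 CCl4 + siLuc-LNP mice. Its groups did not overlap (log2 fold change 1.61 ± 0.33 (SE), adjusted p = 0.0335), and it passed in 12 of 17 alternatives, with adjusted p of 4.51e-10 to 0.155. Without both libraries that stood apart, the log2 fold changes were 5.86 for Marco, 4.13 for Cd163, 1.88 for C6 and 1.43 for Vsig4, the last with an adjusted p of 0.095.

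The other Kupffer cell genes did not follow this size of difference. Of 17 listed genes, all tested, 4 were called higher and 0 lower, and the median log2 fold change was 0.54, against 0.014 over all genes. At an unadjusted p under 0.05, 9 were higher and 0 lower, and DESeq2 called 5 higher and 0 lower. Without CCl4 + 4MU mouse 4 the median was 0.36, with 3 called and 5 higher at an unadjusted p under 0.05, and without both libraries that stood apart it was 0.28. Clec4f, a lectin found on mouse Kupffer cells, measured 128, 70.3, 78 and 157 CPM in the 4 CCl4 + 4MU mice and 38, 68, 46 and 55.5 CPM in the 4 CCl4 + siLuc-LNP mice. The groups did not overlap, but the test was not passed (log2 fold change 1.06 ± 0.27 (SE), adjusted p = 0.0551). Timd4, a phosphatidylserine receptor of long-lived Kupffer cells, had a log2 fold change of -0.044 ± 0.27, adjusted p = 0.946. Cd5l, which encodes a macrophage-secreted scavenger protein, had one of 0.54 ± 0.26, adjusted p = 0.256, and Adgre1, which encodes the F4/80 antigen, one of -0.21 ± 0.32, adjusted p = 0.748. The summed level of the list was 544 to 922 CPM in the CCl4 + 4MU mice and 444 to 575 CPM in the CCl4 + siLuc-LNP mice. In whole liver, fewer cells of a type and less RNA per cell cannot be told apart.

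In the other groups, Marco averaged 6.57 ± 2.89 CPM (SD, n = 4) in control livers, 3.65 ± 2.1 CPM (SD, n = 3) with 4MU and no CCl4, 0.279 ± 0.199 CPM (SD, n = 3) with siLuc-LNP and no CCl4, and 0.575 ± 0.222 CPM (SD, n = 3) with the nanoparticle siRNA against Has2. With CCl4 it was 15 and 31.5 CPM in the 2 livers of CCl4 alone and 0.117 ± 0.126 CPM (SD, n = 4) with CCl4 and siHAS2-LNP. Cd163 averaged 14.5 ± 5.81 CPM (SD, n = 4) in control livers, 0.794 ± 0.352 CPM (SD, n = 3) with siLuc-LNP, 1.24 ± 0.412 CPM (SD, n = 3) with siHAS2-LNP and 0.396 ± 0.169 CPM (SD, n = 4) with CCl4 and siHAS2-LNP. Both genes were thus at their lowest means in the 4 groups given nanoparticles, with or without CCl4. Kcnj16, which encodes an inwardly rectifying potassium channel subunit (ENSMUSG00000051497, GRCm39 chromosome 11, 110858843 to 110927617), averaged 1.17 CPM in control livers and 0.0629 CPM or less in each of the 4 nanoparticle groups. It measured 1.08, 0.698, 0.85 and 0.712 CPM in the 4 CCl4 + 4MU mice and 0, 0, 0 and 0.0693 CPM in the 4 CCl4 + siLuc-LNP mice. All 4 CCl4 + siLuc-LNP livers held 2 counts or fewer, so the mean of CCl4 + 4MU was at least 4.63-fold higher than the level that 3 counts per library would give (adjusted p = 0.00194).

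**Figure D2:**
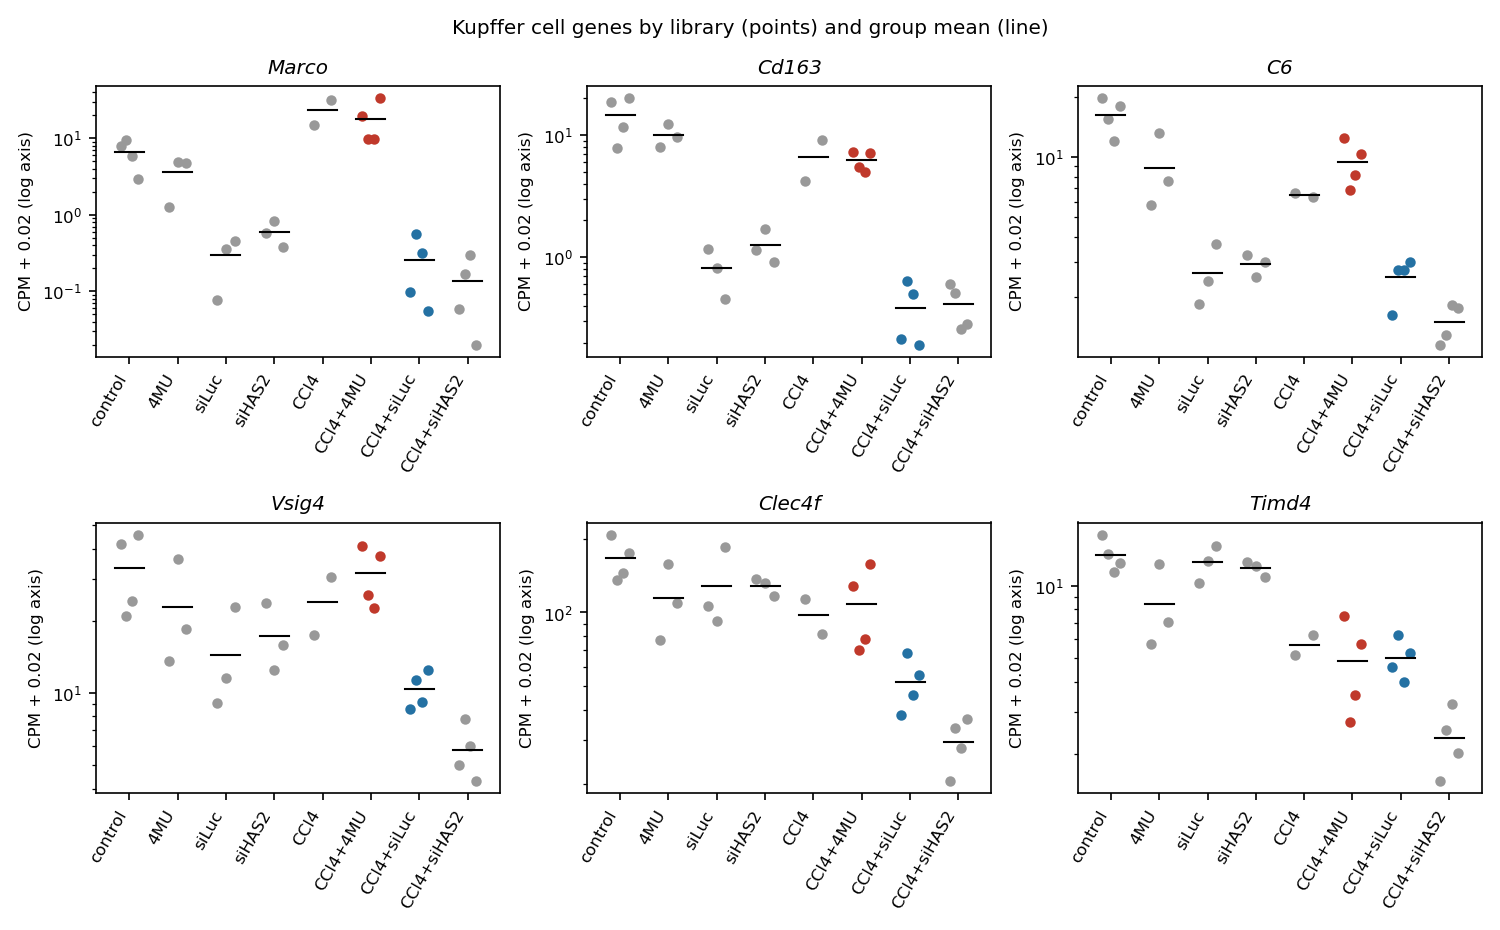
Expression (CPM + 0.02, log axis) of 6 Kupffer cell genes in all 27 libraries by group; points are libraries, black lines group means, red CCl4 + 4MU and blue CCl4 + siLuc-LNP. Marco and Cd163 are low in the 4 nanoparticle groups, whereas the Timd4 points of both coloured groups overlap.

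Outside the Kupffer cell list, Mfsd2a, Pck1, Alas1, Nnmt, Lpin1 and Lpin2 were called higher in CCl4 + 4MU. They were put together here after their values were seen and are not a tested list. Mfsd2a, a transporter of lysophosphatidylcholine that is induced in fasted liver (ENSMUSG00000028655, GRCm39 chromosome 4, 122840643 to 122855244), measured 12, 33.1, 37 and 44.7 CPM in the 4 CCl4 + 4MU mice and 0.94, 1.85, 3.72 and 1.84 CPM in the 4 CCl4 + siLuc-LNP mice. The groups were far apart (log2 fold change 3.97 ± 0.61 (SE), adjusted p = 0.0021), and the gene passed in 16 of 17 alternatives, the exception being limma-voom (adjusted p over all alternatives 1.98e-25 to 0.0703). Pck1, the cytosolic phosphoenolpyruvate carboxykinase of gluconeogenesis (ENSMUSG00000027513, GRCm39 chromosome 2, 172994744 to 173001066), measured 1487, 2859.8, 1722 and 2039 CPM in the 4 CCl4 + 4MU mice and 154, 155, 859 and 250.3 CPM in the 4 CCl4 + siLuc-LNP mice. CCl4 + siLuc-LNP mouse 3 was the highest of its group and still lay below all CCl4 + 4MU mice (log2 fold change 2.52 ± 0.44 (SE), adjusted p = 0.0107). Pck1 passed in 16 of 17 alternatives and was lost when the fit held the 8 libraries alone (adjusted p over all alternatives 1.12e-14 to 0.229). In control livers Pck1 averaged 1473 ± 679 CPM (SD, n = 4) and Mfsd2a 27.8 ± 32.5 CPM (SD, n = 4), while the 2 livers of CCl4 alone averaged 695 and 4.08 CPM.

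Alas1, the first enzyme of haem synthesis, measured 177, 298, 359.7 and 656 CPM in the 4 CCl4 + 4MU mice and 56.1, 116, 166 and 87.4 CPM in the 4 CCl4 + siLuc-LNP mice (log2 fold change 1.81 ± 0.42 (SE), adjusted p = 0.0428). Nnmt, which methylates nicotinamide, measured 36.7, 50.2, 31.2 and 56.7 CPM in the 4 CCl4 + 4MU mice and 2.55, 17.6, 11 and 3.5 CPM in the 4 CCl4 + siLuc-LNP mice (log2 fold change 2.34 ± 0.55 (SE), adjusted p = 0.0435). Lpin1 and Lpin2, phosphatidate phosphatases of triglyceride synthesis, had log2 fold changes of 1.3 ± 0.28, adjusted p = 0.0413, and 0.92 ± 0.21, adjusted p = 0.0413. The Lpin1 groups overlapped through CCl4 + siLuc-LNP mouse 4, at 38.8 CPM against 36.7 CPM in CCl4 + 4MU mouse 1. Alas1 passed in 9, Nnmt in 8, Lpin1 in 11 and Lpin2 in 9 of 17 alternatives, so these calls were less stable than those of Pck1 and Mfsd2a. Several related genes did not pass. G6pc1, the last enzyme of glucose release, had a log2 fold change of 1.29 ± 0.47, adjusted p = 0.149, although its groups did not overlap. Tat, which breaks down tyrosine, had 1.47 ± 0.36, adjusted p = 0.0535, and Sds, the serine dehydratase, 1.05 ± 0.34, adjusted p = 0.111. Cyp4a10, a target of the fatty acid receptor PPAR-alpha, had 2.38 ± 0.61, adjusted p = 0.0551. Of 38 genes of amino acid catabolism, 0 were called by edgeR, 9 were higher and 1 lower at an unadjusted p under 0.05, DESeq2 called 2 higher and 0 lower, and the median was 0.30. With 1 mouse left out that median ran from 0.13 without CCl4 + siLuc-LNP mouse 4 to 0.37 without CCl4 + siLuc-LNP mouse 2. Of 34 genes of PPAR-alpha and fatty acid oxidation, 0 were called by edgeR and DESeq2 called 1 higher. At an unadjusted p under 0.05, 5 were higher and 0 lower, against 9.18% and 9.91% over all genes. Of 27 genes of fatty acid and triglyceride synthesis, 2 were called higher and 0 lower, against 0.340% and 0.283% over all genes.

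**Figure D3:**
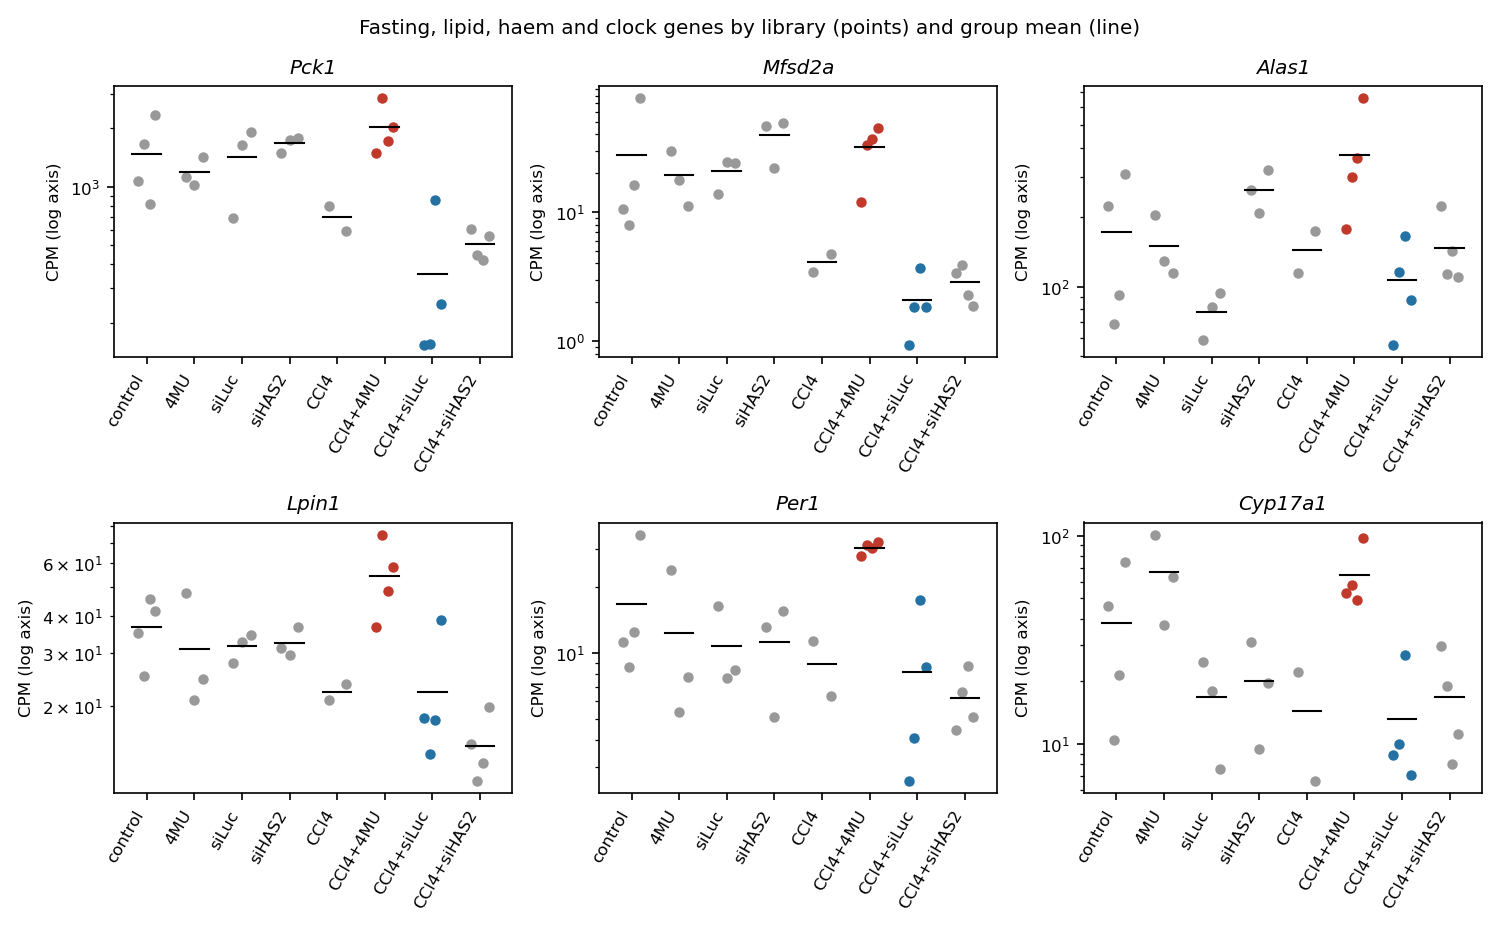
Expression (CPM, log axis) of Pck1, Mfsd2a, Alas1, Lpin1, Per1 and Cyp17a1 in all 27 libraries by group; points are libraries, black lines group means, red CCl4 + 4MU and blue CCl4 + siLuc-LNP. The red points of Pck1 and Mfsd2a lie above all blue points; Per1 and Cyp17a1 did not pass the test.

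Among the other higher genes, Tedc2, a centriolar tubulin complex subunit, measured 42.3, 67.7, 58.4 and 49.8 CPM in the 4 CCl4 + 4MU mice and 20.8, 22, 37.1 and 22.1 CPM in the 4 CCl4 + siLuc-LNP mice (log2 fold change 1.1 ± 0.17 (SE), adjusted p = 0.0021). It passed in 16 of 17 alternatives and was lost when the fit held the 8 libraries alone. Serping1, the inhibitor of complement C1, measured 959, 1032, 778 and 907 CPM in the 4 CCl4 + 4MU mice and 452, 651, 406 and 372 CPM in the 4 CCl4 + siLuc-LNP mice (log2 fold change 0.97 ± 0.17 (SE), adjusted p = 0.0137), and passed in 14 alternatives. Plk3, a stress-responsive polo-like kinase, had a log2 fold change of 1.69 ± 0.32, adjusted p = 0.0264. Hhipl1 had 1.67 ± 0.37, adjusted p = 0.0413, and the potassium channel gene Kcna2 had 1.56 ± 0.36, adjusted p = 0.0435. Igkc, the constant region of the immunoglobulin kappa chain made by plasma cells, had 1.2 ± 0.25, adjusted p = 0.0335, and Igha, that of IgA, 1.23 ± 0.28, adjusted p = 0.0428. Rnase4, a secreted ribonuclease, had 1.29 ± 0.29, adjusted p = 0.0413, and Ang, the angiogenin gene that shares its first exons, 1.07 ± 0.25, adjusted p = 0.0415, so that their reads may be split between them.

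Tmsb10, Spp1, Timp1 and Loxl4 were called lower in CCl4 + 4MU. Tmsb10, an actin-binding thymosin (ENSMUSG00000079523, GRCm39 chromosome 6, 72934330 to 72935737), measured 23.8, 21.9, 28.8 and 22.8 CPM in the 4 CCl4 + 4MU mice and 58.3, 40.4, 68.5 and 57.9 CPM in the 4 CCl4 + siLuc-LNP mice. All CCl4 + 4MU mice lay below all CCl4 + siLuc-LNP mice (log2 fold change -1.21 ± 0.21 (SE), adjusted p = 0.008), and the call held in 16 of 17 alternatives. Without both libraries that stood apart its log2 fold change was -1.1 and its adjusted p 0.0611. Spp1, which encodes osteopontin, measured 103, 132, 195 and 147 CPM in the 4 CCl4 + 4MU mice and 677, 234, 277 and 267 CPM in the 4 CCl4 + siLuc-LNP mice (log2 fold change -1.33 ± 0.30 (SE), adjusted p = 0.0413). CCl4 + siLuc-LNP mouse 1 was the highest, and the other 3 of its group lay between 234 and 277 CPM. Timp1, the inhibitor of matrix metalloproteinases made by activated stellate cells, measured 1.03, 1.45, 2.7 and 1.67 CPM in the 4 CCl4 + 4MU mice and 4.15, 3.51, 4.56 and 3.99 CPM in the 4 CCl4 + siLuc-LNP mice (log2 fold change -1.23 ± 0.29 (SE), adjusted p = 0.0459). Loxl4, a lysyl oxidase that crosslinks collagen, measured 0.516, 0.748, 0.665 and 0.427 CPM in the 4 CCl4 + 4MU mice and 3.21, 5.4, 1.02 and 4.85 CPM in the 4 CCl4 + siLuc-LNP mice (log2 fold change -2.63 ± 0.54 (SE), adjusted p = 0.0335). Spp1 and Timp1 each passed in 9 and Loxl4 in 11 of 17 alternatives.

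Ccr1, a chemokine receptor of myeloid cells, had a log2 fold change of -1.68 ± 0.36, adjusted p = 0.0413. Hsd3b1, a steroid dehydrogenase, had -1.72 ± 0.33, adjusted p = 0.0245, and Art2a, an ADP-ribosyltransferase of T cells, -2.32 ± 0.49, adjusted p = 0.0356. Cdh17, the liver-intestine cadherin, measured 3.96, 5.59, 7.13 and 0.961 CPM in the 4 CCl4 + 4MU mice and 26.1, 10.3, 29.4 and 29.9 CPM in the 4 CCl4 + siLuc-LNP mice (log2 fold change -2.44 ± 0.53 (SE), adjusted p = 0.0413). It was at 0.0381 CPM or less on average in the control, 4MU and siLuc-LNP groups without CCl4. Arhgap36 had -1.97 ± 0.41, adjusted p = 0.0335, and Bmp8b, a bone morphogenetic protein, -1.96 ± 0.44, adjusted p = 0.0415. Lmnb1, the nuclear lamin B1, had -1.06 ± 0.23, adjusted p = 0.0413, with CCl4 + siLuc-LNP mouse 4 at 38.6 CPM and the other 3 of its group at 14.5 to 17.2 CPM.

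Genes of cell division had fold changes below 0 almost throughout, and few passed the test singly. Of 46 genes of the mitotic spindle and kinetochore, all tested, 4 were called lower and 0 higher, and the median log2 fold change was -1.27, against 0.014 over all genes. All 46 fold changes were below 0, and 45 had an unadjusted p under 0.05. The 4 called were Smc2, a condensin subunit, Nusap1, a spindle-associated protein, Kif11, the kinesin that separates spindle poles, and Cdca8, which encodes borealin. Kif11 measured 5.68, 5.14, 8.06 and 2.35 CPM in the 4 CCl4 + 4MU mice and 13.6, 6.94, 10.5 and 32 CPM in the 4 CCl4 + siLuc-LNP mice. Within each group the mice differed widely, with CCl4 + 4MU mouse 3 above CCl4 + siLuc-LNP mouse 2 (log2 fold change -1.58 ± 0.37 (SE), adjusted p = 0.0435). Nusap1 had a log2 fold change of -1.62 ± 0.35, adjusted p = 0.0386, Smc2 -1.67 ± 0.40, adjusted p = 0.0475, and Cdca8 -1.22 ± 0.28, adjusted p = 0.0413. Mki67, the marker of cycling cells, measured 36.8, 44.3, 82.7 and 15.4 CPM in the 4 CCl4 + 4MU mice and 112, 63.3, 82.6 and 207 CPM in the 4 CCl4 + siLuc-LNP mice and did not pass (log2 fold change -1.38 ± 0.37 (SE), adjusted p = 0.067).

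The median level over the 46 genes was 5.61, 5.78, 10.1 and 2.85 CPM in the CCl4 + 4MU mice and 14.3, 9.24, 10.8 and 24.2 CPM in the CCl4 + siLuc-LNP mice. CCl4 + siLuc-LNP mouse 4 was the highest and CCl4 + 4MU mouse 4, the library with epithelial genes, the lowest, and the groups overlapped. Without CCl4 + 4MU mouse 4 the list's median was -1.0, and without CCl4 + siLuc-LNP mouse 4 it was -0.87, each with 0 genes called by edgeR and 42 and 40 lower at an unadjusted p under 0.05. No member was called without CCl4 + 4MU mouse 1 or 2 or CCl4 + siLuc-LNP mouse 1 either, and 38, 34 and 32 were called without CCl4 + 4MU mouse 3, CCl4 + siLuc-LNP mouse 2 and CCl4 + siLuc-LNP mouse 3. DESeq2 called 29. Of 30 cyclins and cell cycle regulators, 1 was called lower, 0 higher, and the median was -0.75. That median ran from -0.98 without CCl4 + 4MU mouse 3 to -0.39 without CCl4 + siLuc-LNP mouse 4, and no member was called with the replicate block, in the fit of the 8 libraries alone, or without any one of CCl4 + 4MU mice 1, 2 and 4 and CCl4 + siLuc-LNP mice 1 and 4. The one called was Ccna2, cyclin A2, at 11, 13.7, 22.9 and 4.77 CPM in the 4 CCl4 + 4MU mice and 37.1, 26.2, 23 and 58.6 CPM in the 4 CCl4 + siLuc-LNP mice (log2 fold change -1.47 ± 0.33 (SE), adjusted p = 0.0413). Of 45 DNA replication genes, 0 were called by edgeR, 25 were lower and 0 higher at an unadjusted p under 0.05, DESeq2 called 5 lower, and the median was -0.73. Without CCl4 + siLuc-LNP mouse 4 these values were 6 lower and a median of -0.24, and by limma-voom they were 8 and -0.32, while without CCl4 + siLuc-LNP mouse 2 the edgeR calls rose to 14. Among them, Pcna, the sliding clamp of DNA polymerase, had -0.84 ± 0.25, adjusted p = 0.0852, and Tyms, the thymidylate synthase, -0.80 ± 0.22, adjusted p = 0.0729.

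**Figure D4:**
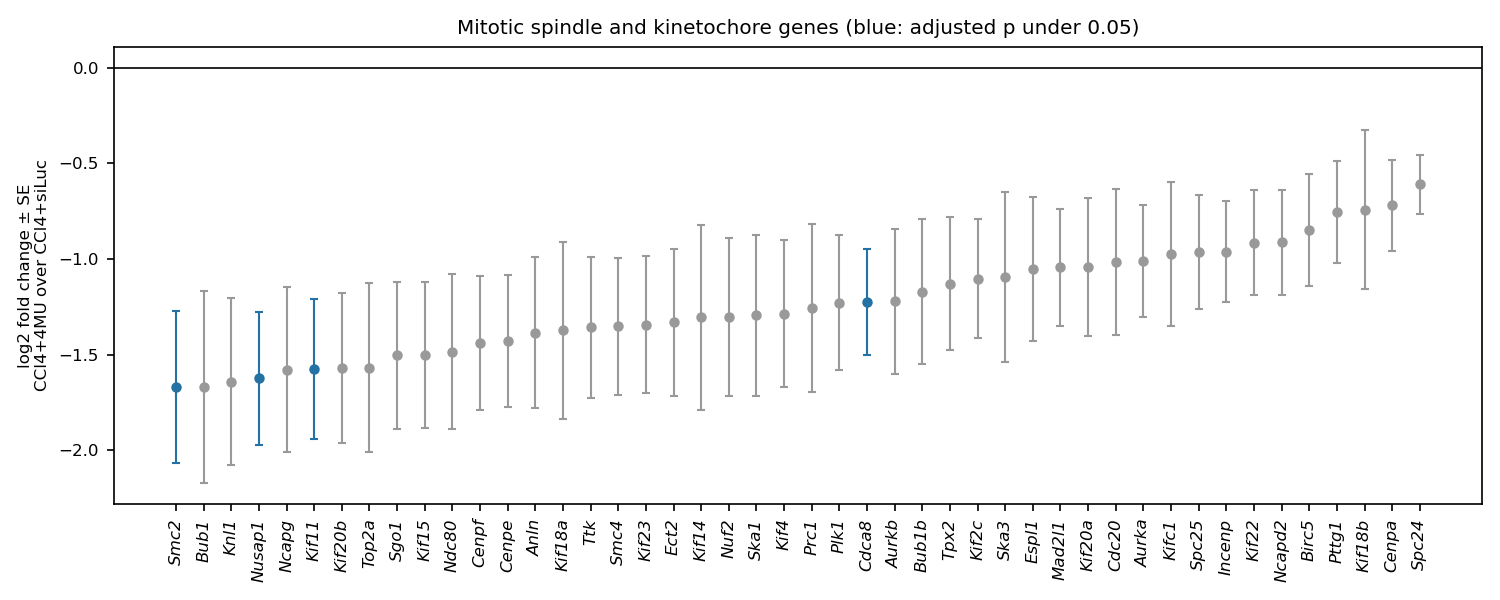
Log2 fold change of CCl4 + 4MU over CCl4 + siLuc-LNP (vertical axis) for 46 mitotic spindle and kinetochore genes in order of size; points are estimates from the fit over all libraries, bars ± 1 SE, and blue marks an adjusted p under 0.05. All 46 points lie below 0 and 4 are blue.

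Promoters of mitotic genes are known to carry the letters CCAAT and TTTGAA or TTTAAA (the cell cycle homology region) near the start of transcription. These are shown for 3 of the 4 mitotic genes called, since the genes of the list shared a direction. The windows are those of RefSeq on GRCm38.p6, from 250 bases before to 50 bases after the start, read 5′ to 3′ along the gene, with the first window listed taken for each gene. Capitals mark matches to these letters on either strand, and matches can overlap.
Cdca8, chr4:124936868-124937167, minus strand: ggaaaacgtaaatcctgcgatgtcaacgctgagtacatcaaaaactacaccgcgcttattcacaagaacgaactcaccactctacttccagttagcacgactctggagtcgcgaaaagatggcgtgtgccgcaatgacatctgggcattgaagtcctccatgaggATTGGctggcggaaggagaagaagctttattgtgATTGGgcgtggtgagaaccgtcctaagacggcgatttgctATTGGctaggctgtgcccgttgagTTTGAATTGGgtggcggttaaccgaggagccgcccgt
Kif11, chr19:37376132-37376431, plus strand: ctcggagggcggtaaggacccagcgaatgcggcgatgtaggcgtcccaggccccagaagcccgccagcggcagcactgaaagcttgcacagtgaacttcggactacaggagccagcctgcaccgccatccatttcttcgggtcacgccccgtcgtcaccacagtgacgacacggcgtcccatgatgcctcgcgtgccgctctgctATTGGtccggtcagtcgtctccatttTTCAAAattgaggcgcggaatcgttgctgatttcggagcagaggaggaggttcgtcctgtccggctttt
Smc2, chr4:52438971-52439270, plus strand: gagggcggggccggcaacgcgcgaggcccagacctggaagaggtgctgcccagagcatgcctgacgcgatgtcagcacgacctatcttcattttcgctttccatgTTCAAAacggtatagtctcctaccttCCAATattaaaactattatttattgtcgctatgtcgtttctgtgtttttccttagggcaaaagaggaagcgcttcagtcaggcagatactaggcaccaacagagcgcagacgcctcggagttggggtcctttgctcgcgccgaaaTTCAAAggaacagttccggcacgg
The Cdca8 window held 4 matches to CCAAT and 1 to TTTGAA, the last pair overlapping by 1 base. The Kif11 window held 1 of each, and the Smc2 window held 1 CCAAT and 2 TTTGAA. The Nusap1 window held neither. Of the 46 mitotic genes, 39 had a window. CCAAT was in 26 of these (66.7%), against 37.9% of 27025 windows of all genes, and TTTGAA or TTTAAA in 32 (82.1%), against 27.8%. Both were in 24 (61.5%), against 10.9%. The E2F motif was searched on both strands in the spelling TTGGCGC, in the related spelling TTCCCGC, in the further spelling TTGCCGC and in the last spelling TTCGCGC. It was in 5 of the 39 (12.8%) and in 22 of 36 replication gene windows (61.1%), against 9.69% of all. The windows of 24 endoplasmic reticulum chaperone genes held the endoplasmic reticulum stress element in 10 (41.7%), against 0.13% of all windows. These matches describe the letters of the windows and no binding was measured.

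Genes of hyaluronan itself showed no call, but with 0.623% of all genes called, so short a list could hold none at that share. Has2, the synthase that the study silenced in other groups, held 0 counts in all 4 CCl4 + 4MU mice and 1 count in total in the CCl4 + siLuc-LNP mice, so that it was below the filter and a difference was not detectable at this depth. Has1 summed to 5 and 10 counts and Has3 to 29 and 10 counts over the 4 mice of each group, and both were also below the filter. Of 15 genes of hyaluronan synthesis, breakdown and binding that were tested, of 21 listed, 0 were called by edgeR. DESeq2 called 1 higher and 1 lower, and the median was -0.012. At an unadjusted p under 0.05, 5 were higher and 2 lower, against 9.18% and 9.91% over all genes. Cd44, the main hyaluronan receptor, had a log2 fold change of -0.33 ± 0.23, adjusted p = 0.439. Hmmr, a hyaluronan-binding protein that is also part of the mitotic spindle, had -1.36 ± 0.36, adjusted p = 0.0605. The hyaluronidase genes Hyal1 and Hyal2 had 0.37 ± 0.17, adjusted p = 0.226, and 0.23 ± 0.16, adjusted p = 0.435. Itih3, a heavy chain that becomes linked to hyaluronan, had 0.79 ± 0.20, adjusted p = 0.055, and Stab2, the hyaluronan clearance receptor of sinusoidal endothelium, 0.56 ± 0.17, adjusted p = 0.0854. Of 16 genes tested on a list of UDP-glucuronosyltransferases and related genes, 0 were called by edgeR, and DESeq2 called 0 higher and 0 lower. Which of them act on 4MU was not tested. At an unadjusted p under 0.05, 1 was higher and 0 lower, against 9.18% and 9.91% over all genes. The median was 0.34, which ran from 0.22 without CCl4 + siLuc-LNP mouse 3 to 0.47 without CCl4 + siLuc-LNP mouse 2. Ugt1a1, the bilirubin-conjugating member, had 0.73 ± 0.35, adjusted p = 0.256. Its reads share exons with the other Ugt1a genes. Sult1e1, the oestrogen sulfotransferase, measured 22, 9.72, 13.8 and 79.5 CPM in the 4 CCl4 + 4MU mice and 2.51, 0.116, 2.46 and 0.451 CPM in the 4 CCl4 + siLuc-LNP mice. The groups did not overlap and the test was not passed (log2 fold change 4.56 ± 1.23 (SE), adjusted p = 0.0693).

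Collagens and most other matrix genes did not pass. Of 21 collagen chains, 0 were called by edgeR, 5 were lower and 1 higher at an unadjusted p under 0.05, DESeq2 called 0 lower and 1 higher, and the median was -0.27. Without CCl4 + siLuc-LNP mouse 1 these were 0 lower, 2 higher and -0.099, and without CCl4 + 4MU mouse 4 1 lower, 1 higher and -0.15. Col1a1, the main chain of scar collagen, measured 91, 56.3, 143 and 30.4 CPM in the 4 CCl4 + 4MU mice and 277, 95.4, 75 and 162 CPM in the 4 CCl4 + siLuc-LNP mice (log2 fold change -0.92 ± 0.45 (SE), adjusted p = 0.259). CCl4 + siLuc-LNP mouse 1 was highest and CCl4 + 4MU mouse 4 lowest, and the groups overlapped. Col3a1 had -0.77 ± 0.39, adjusted p = 0.279, Col8a1 -1.55 ± 0.58, adjusted p = 0.154, and Col5a3, the only collagen gene higher at an unadjusted p under 0.05, 0.97 ± 0.27, adjusted p = 0.0785. Acta2, the smooth muscle actin of myofibroblasts, had -0.052 ± 0.70, adjusted p = 0.978, and was highest in CCl4 + 4MU mouse 4 at 23.2 CPM. Of 37 genes of matrix assembly and crosslinking tested, 2 were called lower, Loxl4 and Spp1, and 0 higher, with a median of -0.27 that ran from -0.44 without CCl4 + siLuc-LNP mouse 3 to -0.099 without CCl4 + siLuc-LNP mouse 1. Neither was called without CCl4 + siLuc-LNP mouse 1 or 4 or CCl4 + 4MU mouse 1, 2 or 4. Lox, the lysyl oxidase, had -1.96 ± 0.58, adjusted p = 0.0854, and Serpinh1, the collagen chaperone, -0.90 ± 0.27, adjusted p = 0.0841. Ccn1, a matricellular protein, had -0.89 ± 0.24, adjusted p = 0.0668, and Fstl1 -0.77 ± 0.31, adjusted p = 0.184. Of 17 markers of activated stellate cells tested, 1 was called, Timp1, which was lower, and it was lost in the same 5 fits. Other members went both ways. Actg2 had 2.28 ± 0.88, adjusted p = 0.168, and Myl9 1.11 ± 0.53, adjusted p = 0.253, while Lox and Col1a1 were below 0. The list's median was -0.40, and -0.14 without CCl4 + siLuc-LNP mouse 1. Their summed level was 320.1 to 586 CPM in the CCl4 + 4MU mice and 489 to 1011 CPM in the CCl4 + siLuc-LNP mice.

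Several lists of hepatocyte function had medians above 0, while cholesterol synthesis and uptake (-0.20) and Nrf2 antioxidant genes (-0.055) had medians below 0. Of 23 genes of bile acid synthesis and transport, 22 had a fold change above 0 and 7 an unadjusted p under 0.05, 0 were called by edgeR and 1 by DESeq2, and the median was 0.36. The number with an unadjusted p under 0.05 ran from 2 without CCl4 + siLuc-LNP mouse 4 to 11 without CCl4 + siLuc-LNP mouse 2 and the median from 0.24 without CCl4 + siLuc-LNP mouse 4 to 0.41 without CCl4 + siLuc-LNP mouse 2. Slc10a1, the sinusoidal bile acid importer, had a log2 fold change of 0.87 ± 0.21, adjusted p = 0.0511, and Cyp7a1, the rate-limiting enzyme of bile acid synthesis, 0.69 ± 0.45, adjusted p = 0.405. All 27 complement genes tested had a fold change above 0, 2 were called higher, C6 and Serping1, and the median was 0.30. With 1 mouse left out up to 3 of the 27 had a fold change below 0. C1ra had 0.46 ± 0.14, adjusted p = 0.0886, and C1qa, made by macrophages, 0.63 ± 0.21, adjusted p = 0.108. Of 29 acute-phase genes, 0 were called by edgeR, 10 were higher and 0 lower at an unadjusted p under 0.05, DESeq2 called 5 higher and 0 lower, and the median was 0.44, or 0.29 without CCl4 + siLuc-LNP mouse 4 and 0.29 without CCl4 + 4MU mouse 4 or 2. Orm3, an orosomucoid, had 1.8 ± 0.45, adjusted p = 0.0535, and Serpina3n 0.73 ± 0.20, adjusted p = 0.0755. Of 31 targets of the xenobiotic receptors PXR and CAR, 1 was called higher, Alas1, and 0 lower, with a median of 0.43 that ran from 0.25 without CCl4 + siLuc-LNP mouse 4 to 0.69 without CCl4 + siLuc-LNP mouse 2. The Alas1 call was lost without CCl4 + 4MU mouse 2 or 4 or CCl4 + siLuc-LNP mouse 1 or 4. The receptor genes themselves, Nr1i2 and Nr1i3, had 0.84 ± 0.20, adjusted p = 0.0509, and 1.15 ± 0.32, adjusted p = 0.071, and the target Cyp3a11 had 0.32 ± 0.25, adjusted p = 0.507. Hrg, a plasma glycoprotein made by hepatocytes, had 0.74 ± 0.25, adjusted p = 0.112.

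Cyp2e1 measured 2177, 2064, 1166 and 1582 CPM in the 4 CCl4 + 4MU mice and 641, 1283, 1039.9 and 251 CPM in the 4 CCl4 + siLuc-LNP mice and did not pass (log2 fold change 1.12 ± 0.33 (SE), adjusted p = 0.0834). CCl4 + siLuc-LNP mouse 4 was lowest, the mouse with the highest mitotic genes, and the groups overlapped. Lgr5, a pericentral gene of the Wnt pathway, had 0.79 ± 0.20, adjusted p = 0.0534, and Cyp2a5 1.03 ± 0.36, adjusted p = 0.131. Of 18 pericentral markers tested, 0 were called by edgeR, DESeq2 called 3 higher and 0 lower, and the median was 0.36. At an unadjusted p under 0.05, 6 were higher and 0 lower, against 9.18% and 9.91% over all genes. A fold change below 0 was found in 7, among them Axin2 (-0.35, adjusted p = 0.45) and Rnf43 (-0.31, adjusted p = 0.542). Cyp17a1, a steroid hydroxylase, had 2.31 ± 0.57, adjusted p = 0.0511, with no overlap between the groups. Afp, the fetal albumin-like protein, measured 78.7, 112, 79 and 94.4 CPM in the 4 CCl4 + 4MU mice and 207, 119, 414 and 248 CPM in the 4 CCl4 + siLuc-LNP mice and did not pass (log2 fold change -1.44 ± 0.36 (SE), adjusted p = 0.0549). Of 21 clock genes, 0 were called by edgeR, 10 were higher and 2 lower at an unadjusted p under 0.05, DESeq2 called 2 higher and 0 lower, and the median was 0.68. The 10 higher became 5 without CCl4 + siLuc-LNP mouse 1, 6 without mouse 2, and the median ran from 0.60 without CCl4 + siLuc-LNP mouse 1 to 0.91 without CCl4 + siLuc-LNP mouse 4. Per1, a clock repressor that glucocorticoids also induce, measured 27.6, 31.1, 30.1 and 32 CPM in the 4 CCl4 + 4MU mice and 2.59, 4.09, 17.4 and 8.63 CPM in the 4 CCl4 + siLuc-LNP mice (log2 fold change 1.91 ± 0.52 (SE), adjusted p = 0.0693). The 4 CCl4 + 4MU mice were close together, and CCl4 + siLuc-LNP mouse 3 was nearest to them. Ciart had 3.06 ± 0.86, adjusted p = 0.0785, and Nr1d1, which encodes REV-ERB-alpha, 1.42 ± 0.51, adjusted p = 0.141. The hour at which each liver was taken is not given in the sources used here, and its part in these values was not tested.

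Of 29 endoplasmic reticulum chaperones, 0 were called by edgeR, 12 were lower and 1 higher at an unadjusted p under 0.05, DESeq2 called 7 lower and 1 higher, and the median was -0.31, which ran from -0.45 without CCl4 + siLuc-LNP mouse 3 to -0.20 without CCl4 + siLuc-LNP mouse 4. Hsp90b1, the chaperone GRP94, had -0.92 ± 0.23, adjusted p = 0.0551, and the disulfide isomerases Pdia6 and Pdia3 had -0.62 ± 0.16, adjusted p = 0.0551, and -0.69 ± 0.20, adjusted p = 0.0785. Of 34 splicing factors, 0 were called by edgeR, 16 were lower and 1 higher at an unadjusted p under 0.05, DESeq2 called 6 lower and 0 higher, and the median was -0.32. The 16 became 10 without CCl4 + siLuc-LNP mouse 4 and 10 without CCl4 + 4MU mouse 4. Hnrnpa3 had -0.74 ± 0.20, adjusted p = 0.0693.

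**Figure D5:**
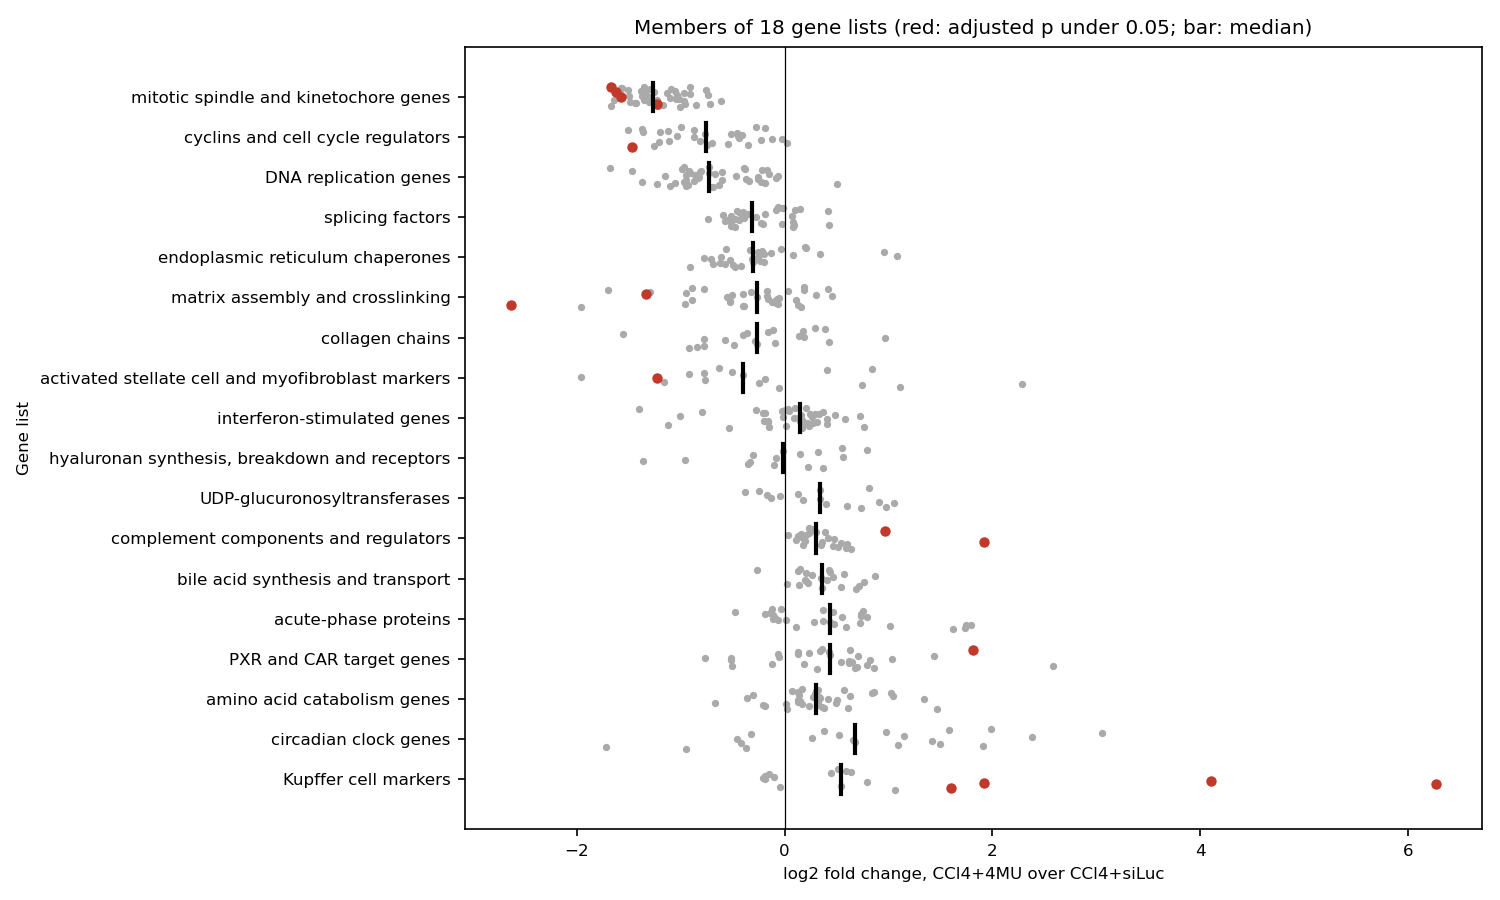
Log2 fold change of CCl4 + 4MU over CCl4 + siLuc-LNP (horizontal axis) for the tested members of 18 gene lists (vertical axis); points are genes, red an adjusted p under 0.05, and black bars list medians. The list medians run from -1.27 for mitotic genes to 0.68 for clock genes.

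Among inflammatory genes, 24 chemokines and receptors were tested. Of these, 1 was called lower, Ccr1, and 0 higher, against 0.283% lower and 0.340% higher over all genes. At an unadjusted p under 0.05, 6 were lower and 2 higher, against 9.91% and 9.18% over all genes, and DESeq2 called 4 lower and 0 higher. Without CCl4 + siLuc-LNP mouse 4 no chemokine or receptor was called by edgeR, and 5 were lower and 0 higher at that p. Cx3cr1, the fractalkine receptor of monocytes, measured 4.09, 4.34, 7.83 and 4.06 CPM in the 4 CCl4 + 4MU mice and 16.4, 12.2, 9.55 and 11.2 CPM in the 4 CCl4 + siLuc-LNP mice, with no overlap, and did not pass (log2 fold change -1.27 ± 0.32 (SE), adjusted p = 0.0551). Ccl2, the main monocyte attractant, had -1.6 ± 0.51, adjusted p = 0.103, its receptor gene Ccr2 -0.78 ± 0.33, adjusted p = 0.206, and Cxcl10, an interferon-induced chemokine, -1.4 ± 0.41, adjusted p = 0.0841. Of 44 interferon-stimulated genes, 0 were called by edgeR. At an unadjusted p under 0.05, 4 were higher and 5 lower, near the 9.18% and 9.91% over all genes. DESeq2 called 0 higher and 2 lower, and the median was 0.15, or -0.058 without both libraries that stood apart. Without CCl4 + siLuc-LNP mouse 4, 11 were higher and 2 lower at that p. Bst2, an interferon-induced membrane protein, had 0.25 ± 0.18, adjusted p = 0.471. Siglech, a gene of plasmacytoid dendritic cells, was below the filter, with 25 and 23 counts summed over the 4 mice of each group. The 22 monocyte and scar macrophage markers summed to 2929 to 3709.7 CPM in the CCl4 + 4MU mice. In the CCl4 + siLuc-LNP mice they summed to 3129 to 4302 CPM. The median over these markers was at most 24.9 CPM in each CCl4 + 4MU mouse. It was at most 28.6 CPM in each CCl4 + siLuc-LNP mouse. A few abundant members therefore set these sums, which are no measure of monocytes or macrophages. Members of this list went both ways. Ly6c2 had 0.19 ± 0.46, adjusted p = 0.85, and Trem2 0.32 ± 0.27, adjusted p = 0.528, while Cx3cr1 and Ccr2 were below 0. The 14 neutrophil markers summed to 35.9 to 70.2 CPM in the CCl4 + 4MU mice. In the CCl4 + siLuc-LNP mice these 14 summed to 35.2 to 46.4 CPM. Of 12 neutrophil genes tested, 0 were called by edgeR, 4 were higher and 0 lower at an unadjusted p under 0.05, DESeq2 called 0 higher and 0 lower, and 5 had a fold change below 0. The 4 were the granule genes Mpo, Ngp, Camp and Elane, of which Mpo and Ngp had log2 fold changes of 1.81 ± 0.67, adjusted p = 0.152, and 1.57 ± 0.64, adjusted p = 0.184. Lyz2, the myeloid lysozyme, had 0.66 ± 0.30, adjusted p = 0.221. The summed level of 22 T, NK and B cell markers was 40.3 to 60.6 CPM in the CCl4 + 4MU mice and 22.4 to 42.1 CPM in the CCl4 + siLuc-LNP mice. Of 17 tested, 1 was called higher, Igkc, 0 were called lower, and 7 had a fold change below 0, among them the T cell receptor gene Trac and the B cell genes Cd79a, Cd79b and Ms4a1. Iglc1, an immunoglobulin light chain gene, had 1.85 ± 0.47, adjusted p = 0.0551. Markers of muscle, pancreas and fat summed to 10.3 to 14.7 CPM in the CCl4 + 4MU mice and 5.27 to 16.3 CPM in the CCl4 + siLuc-LNP mice.

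The same drug and nanoparticle contrast was available without CCl4, in 3 livers of each group. There 176 genes (1.25%) passed, 57 higher and 119 lower in 4MU. Marco (log2 fold change 3.63 ± 0.75, adjusted p = 0.0144), Cd163 (3.67 ± 0.43, adjusted p = 6.64e-05) and C6 (1.74 ± 0.30, adjusted p = 0.00441) were higher in 4MU there too. Tedc2 also passed without CCl4, with 0.96 ± 0.20, adjusted p = 0.0134. So did Kcnj16 (adjusted p = 0.00204), which held 1 count or fewer in each siLuc-LNP liver and was at least 6.62-fold higher in 4MU than 3 counts per library would give. Pck1 and Mfsd2a did not pass without CCl4, with -0.26 ± 0.48, adjusted p = 0.885, and -0.097 ± 0.60, adjusted p = 0.968. Cxcl13, a B cell attractant, held 1 count or fewer in each siLuc-LNP liver without CCl4 and averaged 2.02 CPM in 4MU, at least 11.8-fold above that floor (adjusted p = 0.01). Gdf3, a growth factor of the TGF-beta family, held 1 count or fewer in each 4MU liver and was at least 7.22-fold lower in 4MU, with the 4MU level set at the same floor (adjusted p = 0.00276). With CCl4, Gdf3 had -1.64 ± 0.49, adjusted p = 0.0865. With CCl4, Cxcl13 had -0.019 ± 0.68, adjusted p = 0.992. Cx3cr1 and Ccr1 were lower in 4MU without CCl4 (log2 fold change -3.87 ± 0.45 (SE), adjusted p = 6.64e-05, and log2 fold change -3.34 ± 0.50 (SE), adjusted p = 0.0011).

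Whether the contrast differed with and without CCl4 was tested as an interaction, and 7 genes (0.0496%) passed. Trem2, a lipid receptor of macrophages in injured liver, was lower in 4MU than in siLuc-LNP without CCl4 (log2 fold change -2.65) but not with CCl4 (0.32, adjusted p = 0.528), a difference of 2.97 ± 0.51, adjusted p = 0.0316. With CCl4 it measured 17.5, 19, 24.6 and 18.8 CPM in the 4 CCl4 + 4MU mice and 24, 12.4, 13.4 and 14 CPM in the 4 CCl4 + siLuc-LNP mice, against means of 0.445 and 2.82 CPM in 4MU and siLuc-LNP without CCl4. Trpm6, a magnesium channel gene, had a difference of 2.14 ± 0.37, adjusted p = 0.0316, Ang one of 1.97 ± 0.37, adjusted p = 0.0443, and Arrdc2 one of 1.7 ± 0.33, adjusted p = 0.0495. Pck1 and Mfsd2a did not pass this test (adjusted p = 0.0853 and 0.0513), so their contrasts are not shown to differ between injured and uninjured livers. The interaction count ranged over 0 to 41 when 1 library was left out.

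Against CCl4 and siHAS2-LNP, which shares the CCl4 + 4MU libraries with the comparison above, Marco had a log2 fold change of 6.97 ± 0.71, Cd163 3.88 ± 0.41, Mfsd2a 3.42 ± 0.59, Pck1 2.0 ± 0.43 and Tmsb10 -0.30 ± 0.20. Mki67 had -0.60 ± 0.36 there. In the CCl4 and siHAS2-LNP libraries, 3 counts were worth 0.117 to 0.401 CPM. The mean of Marco in that group, given above, was at the low end of this range, so the size of its fold change is uncertain. Against the 2 livers of CCl4 alone, CCl4 + 4MU had -0.36 ± 0.54 for Marco, -0.10 ± 0.38 for Cd163, 2.95 ± 0.75 for Mfsd2a and 1.54 ± 0.55 for Pck1. CCl4 + siLuc-LNP had -6.63 ± 0.68, -4.2 ± 0.44, -1.02 ± 0.71 and -0.97 ± 0.49 against the same 2 livers. Only 2 mice stood for CCl4 alone, and these values are given side by side without a further test.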

How the data were processed

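Total liver RNA was sequenced in paired-end mode on a NextSeq500 after a directional library kit. Per the labels, the authors trimmed reads with Trimmomatic 0.39, aligned them to GRCm39 with HISAT2 and counted them per gene with featureCounts without multi-mapping reads; R 3.4.2 and DESeq2 were used afterwards. The HISAT2 version and the strand setting are not given in the sources used here. The deposited values are raw counts per gene and library. Gene names and coordinates were taken from GENCODE vM39 (GRCm39) by gene identifier.

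Genes with a mean count of at least 10 over the 27 libraries were kept (14114). Counts were scaled by TMM and tested with edgeR 4.0.16 (quasi-likelihood, 8 groups in one fit, Benjamini-Hochberg adjustment, threshold 0.05) in R 4.3.3. The adjusted p-values in the text are from this fit unless another tool is named, values are CPM scaled by TMM, fold changes are CCl4 + 4MU over CCl4 + siLuc-LNP, and SE is the standard error of the log2 fold change. Groups at 3 counts or fewer in every library were set to 3 counts per library for a bound. The floors cover counting error only, whereas the SE comes from the fit and includes the spread between libraries. DESeq2 1.42.0 and limma 3.58.1 served as alternatives. The edgeR, limma and DESeq2 steps were tested on simulated data. Named genes were up to 12 in each direction with the largest fold change among calls without overlap and at 1 CPM or more. Added to these were up to 4 of each list by p, and up to 4 in each direction for the contrasts without CCl4 and for the interaction. A fixed set of hyaluronan, matrix, chemokine, hepatocyte, Kupffer cell and dendritic cell genes was named too. Cd5l, Timd4, Adgre1, Tedc2, Igha, Rnase4, Dmbt1, Slc26a3, Car9, Rn18s-rs5, Lars2, Rn7sk, Cd79a, Cd79b and Ms4a1 were named after their values were seen. Ly6c2, Axin2, Rnf43, Actg2 and Myl9 were named so too, and the counts over named genes below leave these out. Some genes that the rule would name are not reported here. The comparison, the lists and the genes were chosen with earlier results of these data known. Alternatives were other tools, scalings, filters, fits, thresholds, and each library left out.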

Additional observations from a re-analysis of the deposited data

Results flagged for a closer look

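In each group of 4 mice, a mouse was set apart where its gap to the nearest other mouse exceeded Dixon's critical value. Of 222 pairs of a gene and a group, 26 met this. Of the 26, 9 were in CCl4 + 4MU mouse 4 and 7 in CCl4 + siLuc-LNP mouse 3. The genes examined included Dmbt1, Slc26a3, Car9, Rn18s-rs5, Lars2 and Rn7sk, named after their values in a single mouse were seen. The count therefore cannot be set against the 5% that chance alone would give. In CCl4 + 4MU mouse 4, the epithelial genes Dmbt1 (2350.4 CPM, the other 3 mice 0 to 0.861), Krt19 (92.6), Muc1 (54.2), Mmp7 (44.0), Car9 (34.8) and Slc26a3 (34.7) were high, as were Acta2 (23.2), Nr1i2 (124.8) and Hyal2 (61.3). In CCl4 + siLuc-LNP mouse 3, Rn18s-rs5 (183579 CPM), Lars2 (20943) and Rn7sk (127.2) were high, and Pck1 (859), Tedc2 (37.1), Cyp17a1 (26.7) and Trpm6 (3.12) were the highest of their group.

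In CCl4 + 4MU mouse 3, Pcna (51.3 CPM), Cx3cr1 (7.83) and E2f2 (6.47) were the highest of the group. In CCl4 + siLuc-LNP mouse 1, Spp1 (677 CPM) and Trem2 (24.0) were the highest, and Slc26a3 stood at 0.0784 CPM where the other 3 were at 0. In CCl4 + siLuc-LNP mouse 4, Lmnb1 (38.6 CPM) was the highest and Igha (5.96) the lowest, and Kcnj16 stood at 0.0693 CPM where the other 3 were at 0. In CCl4 + siLuc-LNP mouse 2, Kcna2 (1.16 CPM) was the highest. The part of tissue sampling or RNA quality in these values was not tested.

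The contrast of 4MU with siLuc-LNP differed between livers with and without CCl4 by the interaction test for Trem2 (difference of the log2 fold changes 2.97), Trpm6 (2.14), Ang (1.97) and Arrdc2 (1.70), with adjusted p-values from edgeR of 0.0316, 0.0316, 0.0443 and 0.0495.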

How the results depend on the processing

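The count of 88 genes in CCl4 + 4MU against CCl4 + siLuc-LNP moved to 520 with DESeq2, 54 with limma-voom, 1042 with no low-count filter, 9 when the fit held the 8 libraries alone, 20 without both libraries that stood apart (an alternative chosen after seeing the data) and 2695 at an unadjusted p under 0.05. It ranged from 10 to 923 with 1 mouse left out. The other scalings, filterByExpr and a log2 fold change of at least 1 kept it between 67 and 104. The replicate block gave 30 calls, 29 of them among the 88. Same-numbered mice of the 2 groups did not deviate together (Pearson's r across genes -0.33 to 0.03 over 4 pairs), so the numbers were not taken to pair them. No CCl4 + 4MU mouse correlated best with its own number. With no low-count filter, 24 DNA replication genes were called lower, and 12 clock genes higher and 2 lower, where the main analysis called 0. Of all 31177 genes in that fit, 524 were called higher and 518 lower. Of the 88 genes, 78 were also called by DESeq2 and 39 by limma-voom.

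Without CCl4, the count of 176 moved to 431 with DESeq2, 449 with limma-voom, 81 with library totals alone, 510 with no low-count filter, 2 when the fit held the 6 libraries alone and 1810 at an unadjusted p, was 127 with the replicate block, and ranged from 50 to 223 with 1 library left out. The interaction count of 7 moved to 131 with DESeq2, 38 with limma-voom, 3 with library totals, 360 with no filter, 2 with filterByExpr, 1 with the replicate block, 0 by edgeR when the fit held the 4 compared groups alone and 1798 at an unadjusted p, and ranged from 0 to 41 with 1 library left out. The cause of these moves was not tested.

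Among the named genes, 1397 of the values under an alternative kept their direction and side of the threshold, 271 were no longer past it, 190 newly passed it and 18 changed sign. The sign changes were in Timd4 (-0.33 to 0.12 with 1 mouse left out), Acta2 (-1.41 to 0.26), Cxcl13 (-0.98 to 0.46), Krt19 (-0.36 to 4.13, and -0.54 without both libraries that stood apart), Slc26a3 (-2.19 to 10.57, and -2.44) and Car9 (0.12 to 5.09, and -0.071). Depth limited Has1, Has2, Has3 and Siglech, which stayed below the filter.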

Other observations

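Mitochondrially encoded RNAs and ribosomal protein genes were examined in the same comparison as signs of RNA content. Of 13 mitochondrially encoded genes, 12 had a fold change below 0 with a median log2 fold change of -0.33, 0 were called by edgeR and 0 by DESeq2, and 1 had an unadjusted p under 0.05. The median ran from -0.56 without CCl4 + 4MU mouse 2 to -0.16 without CCl4 + 4MU mouse 4. Their summed level was 22761 to 43694 CPM in the CCl4 + 4MU mice and 34330.0 to 42379 CPM in the CCl4 + siLuc-LNP mice. Of 47 cytosolic ribosomal protein genes, 0 were called by edgeR and 0 by DESeq2, 0 had an unadjusted p under 0.05, and the median was -0.078. That median ran from -0.27 without CCl4 + siLuc-LNP mouse 4 to 0.094 without CCl4 + siLuc-LNP mouse 3, the former with 11 lower at an unadjusted p under 0.05. Cholangiocyte markers summed to 228 to 454 CPM in the CCl4 + 4MU mice and 400.4 to 892 CPM in the CCl4 + siLuc-LNP mice. Much of the latter was Spp1, at 677 CPM in CCl4 + siLuc-LNP mouse 1 and 234 to 277 CPM in the rest of that group. Spp1 is also listed with matrix and scar macrophage genes. Other members went both ways, such as Krt19 (log2 fold change 3.69, adjusted p = 0.0605) and Prom1 (-1.09, adjusted p = 0.0785). The sums are therefore no measure of duct cells. Quiescent stellate cell markers summed to 502 to 632 CPM in the CCl4 + 4MU mice and 536 to 751 CPM in the CCl4 + siLuc-LNP mice. Of 25 genes of cholesterol synthesis and uptake, 0 were called by edgeR and 0 by DESeq2, 0 had an unadjusted p under 0.05, and the median was -0.20. Without both libraries that stood apart the median was -0.82, all 25 fold changes were below 0 and 7 had an unadjusted p under 0.05, with 0 called by edgeR. With 1 mouse left out the median ran from -0.51 without CCl4 + 4MU mouse 4 to -0.034 without CCl4 + siLuc-LNP mouse 4.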
